A study of Homo sapiens with 6 samples.

Results

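The Toll-like receptors are the 10 human genes TLR1 to TLR10, which are 10 of the 17687 genes measured on these arrays. Each was taken by its symbol in the platform annotation, where each has 1 probe set. Their RNA was measured in the established human melanoma line A375, in 2 groups of 3 Affymetrix Clariom S Pico arrays. The siERK3 group received a predesigned small interfering RNA (siRNA) against ERK3 (the product of MAPK6, an atypical MAP kinase), and the siCon group a commercial negative control siRNA. Cells of both groups were transfected with the same reagent, and total RNA was extracted 3 days later. The knockdown was transient, in 1 cell line and with 1 siRNA product named for ERK3, whose sequence the labels do not state. The labels do not say whether the 3 arrays of a group came from separate cultures, so p-values cover only the spread of these arrays, possibly technical.

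Toll-like receptors are membrane proteins that recognise microbial molecules, and some molecules of damaged tissue, through a horseshoe of leucine-rich repeats. A cytoplasmic TIR domain passes the signal to adaptor proteins, mainly MyD88 and TRIF, and from there to kinases that activate NF-kB, MAP kinases and interferon regulatory factors. TLR1, TLR2, TLR4, TLR5 and TLR6 act at the cell surface, while TLR3, TLR7, TLR8 and TLR9 sense nucleic acids in endosomes. Most are best known from macrophages, dendritic cells and B cells, and several have also been described on melanoma cells.

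The deposited values are log2 signals, 1 per probe set and array, whose zero point is unknown. Levels are therefore set against the 612 negative control probe sets of the same array and not against another gene's level; a gene above their 95th percentile is called above the controls. That percentile lay between 7.32 and 7.40 on the siERK3 arrays and between 7.34 and 7.56 on the siCon arrays, and 45.6% to 47.6% of all genes were above it. MAPK6, the target, averaged 10.51 ± 0.18 in siERK3 and 13.54 ± 0.09 in siCon (log2, SD, n = 3 each), an 8.18-fold lower signal. On the second principal component, siERK3 3 at -15.2 and siCon 2 at -26.5 had the lowest scores, while the remaining 4 arrays scored 4.35 to 21.7. Of 11 measured melanoma and melanocyte markers, 5 exceeded the controls on all 6 arrays (SOX10, MITF, S100B, AXL and TFAP2A), while the pigment cell markers MLANA, PMEL and TYR lay below them on every array.

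Signal above the controls on all 6 arrays was measured for 3 receptors, TLR3, TLR4 and TLR6, and for 43.7% of all genes. The sequences around their annotated starts, 250 bases before to 50 after, are shown because these 3 are the receptors in which a change in either direction could be seen. They come from RefSeq on build GRCh38.p14, which held such a window for 7 of the 10 receptors, and run 5′ to 3′ on the gene's strand. Capitals mark matches, on either strand, to 4 motifs of factors known from receptor genes of this family: TGANTCA for AP-1, GGG, any 2 bases and TTTCC for NF-kB, GAGGAA for PU.1, and a pair of GAAA repeats 2 bases apart for interferon regulatory factors (IRF).
TLR6 (chr4:38856768-38857067, minus strand): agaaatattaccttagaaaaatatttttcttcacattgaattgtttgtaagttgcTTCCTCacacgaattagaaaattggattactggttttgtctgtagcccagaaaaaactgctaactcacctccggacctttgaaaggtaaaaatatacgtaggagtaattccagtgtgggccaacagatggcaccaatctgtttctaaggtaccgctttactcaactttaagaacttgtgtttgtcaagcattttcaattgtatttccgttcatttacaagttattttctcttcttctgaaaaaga
TLR4 (chr9:117704153-117704452, plus strand): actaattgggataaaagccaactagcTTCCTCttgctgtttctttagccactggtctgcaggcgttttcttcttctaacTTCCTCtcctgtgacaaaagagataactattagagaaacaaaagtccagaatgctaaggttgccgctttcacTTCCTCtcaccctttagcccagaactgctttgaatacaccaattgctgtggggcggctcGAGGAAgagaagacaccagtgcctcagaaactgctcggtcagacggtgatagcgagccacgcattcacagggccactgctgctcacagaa
TLR3 (chr4:186068906-186069205, plus strand): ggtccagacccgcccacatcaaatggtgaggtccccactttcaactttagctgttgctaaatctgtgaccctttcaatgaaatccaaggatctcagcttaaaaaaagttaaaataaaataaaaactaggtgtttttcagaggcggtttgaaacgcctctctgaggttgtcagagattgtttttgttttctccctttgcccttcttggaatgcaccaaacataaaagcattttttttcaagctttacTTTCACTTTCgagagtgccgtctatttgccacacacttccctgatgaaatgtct
The TLR6 window held 1 match, to the PU.1 letters, beginning at base -195 relative to the start base. It surrounds a start that lies 11573 bases inside the annotated end of the gene, so an upstream start of TLR6 is not covered. The TLR4 window held 4 PU.1 matches, at -224, -171, -99 and -40. In the TLR3 window there was 1 IRF match, at -4. Among all 35116 windows in the table, 27.9% held the PU.1 letters, 3.57% the IRF letters, 7.71% the AP-1 letters and 1.91% the NF-kB letters. A match is a run of letters and not a bound site.

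After ERK3 knockdown, TLR6 was the receptor whose signal fell. TLR6 pairs with TLR2 to recognise diacylated lipopeptides of bacteria and mycoplasma. Its log2 signal was 8.996, 9.58 and 9.39 on the 3 siERK3 arrays, against 10.58, 10.75 and 10.95 on the 3 siCon arrays. Every siERK3 array lay below every siCon array, and all 6 stayed above the controls, by 1.68 to 2.18 in siERK3 and by 3.03 to 3.57 in siCon. The means were 9.32 ± 0.30 in siERK3 and 10.76 ± 0.18 in siCon (SD, n = 3 each), a 2.72-fold lower signal (95% interval 2.04 to 3.61). In limma the log2 change was -1.44 (SE 0.18), with an adjusted p of 0.0135 over all 17687 genes, rank 34 by p and rank 28 by size. The exact two-sided permutation p was 0.1, as small as 3 against 3 arrays permit. In bulk RNA a lower signal per cell and fewer cells carrying the transcript cannot be told apart.

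**Figure D1:**
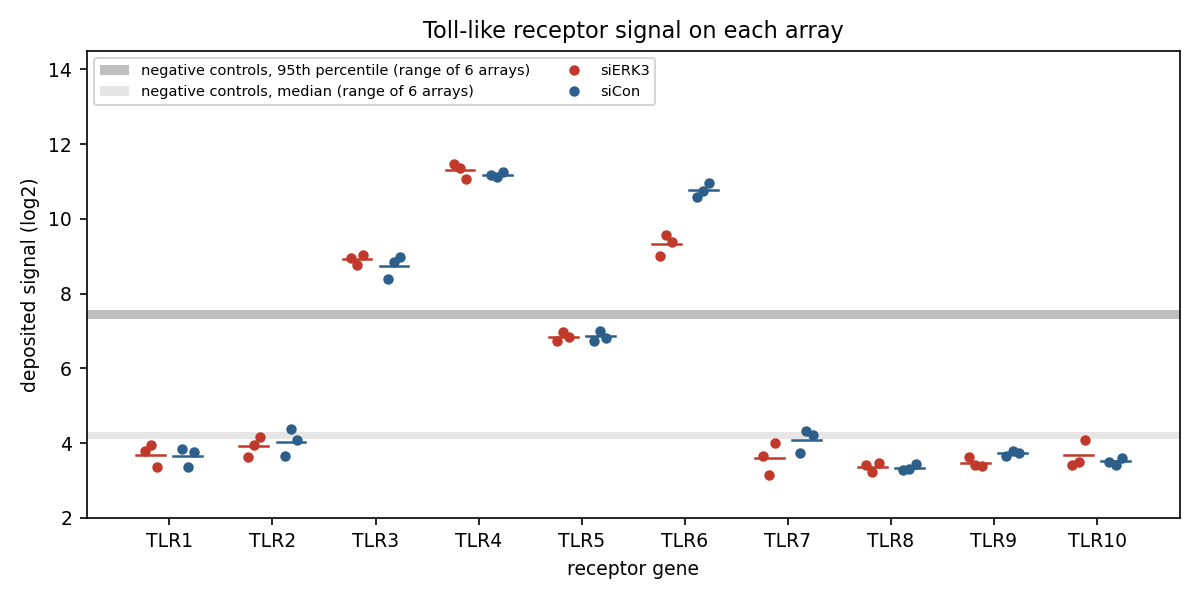
Deposited log2 signal (vertical axis) of the 10 Toll-like receptor genes (horizontal axis) on each array, siERK3 in red and siCon in blue, with a line at each group's mean of 3 arrays. Grey bands give the range over 6 arrays of the negative controls' 95th percentile and median; TLR3, TLR4 and TLR6 lie above the upper band on all 6 arrays, and only for TLR6 among these 3 do the groups separate.

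Omitting a single array removed the TLR6 call in 3 of 6 such fits. With 1 array left out, the log2 change stayed between -1.57 and -1.28, but adjusted p in limma rose to 0.0538 without siERK3 1, 0.0687 without siERK3 3 and 0.0623 without siCon 3. It was 0.0366 without siERK3 2 and 0.0466 without siCon 1 or without siCon 2. The 2 arrays with the lowest scores on the second principal component were siERK3 3 and siCon 2. Without both, the change was -1.48 with an adjusted p of 0.154 in limma. With all 6 arrays but no moderation of the variance, the adjusted p of the linear fit was 0.142.

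TLR4, the receptor for bacterial lipopolysaccharide, had a log2 signal of 11.46, 11.37 and 11.06 in siERK3, against 11.18, 11.11 and 11.24 in siCon. The values overlapped, with siERK3 3 below all siCon arrays and the other siERK3 arrays above them. Its log2 change was 0.12 (95% interval -0.22 to 0.45), with an adjusted p of 0.798 in limma. TLR3, the endosomal receptor for double-stranded RNA, gave 8.96, 8.77 and 9.02 in siERK3, against 8.39, 8.84 and 8.98 in siCon. Here siCon 1 was the low array, and the other 5 lay between 8.77 and 9.02. The log2 change of TLR3 was 0.18 (95% interval -0.22 to 0.58; adjusted p 0.728 in limma). These intervals reach no lower than -0.22 for either gene.

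The change of TLR6 was also set against the other receptors within each array. The log2 difference TLR6 minus TLR4 was -2.47, -1.79 and -1.67 on the siERK3 arrays and -0.60, -0.36 and -0.30 on the siCon arrays, a shift of -1.56. TLR6 minus TLR3 was 0.04, 0.81 and 0.37 in siERK3 and 2.19, 1.92 and 1.97 in siCon, a shift of -1.62. Neither difference overlapped between the groups. Each had the exact two-sided permutation p of 0.1, the smallest possible for 3 against 3 arrays. That outcome was fixed by the values given above and is no further test of TLR6. The highest siERK3 value of TLR6 was 9.58 and its lowest siCon value 10.58. That gap was wider than the range over all arrays of TLR4 (11.06 to 11.46) or of TLR3 (8.39 to 9.02). The shifts of -1.56 and -1.62 are differences of change, since the probe sets' own levels are not comparable.

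The other 7 receptors lay at or below the controls' 95th percentile on all 6 arrays, as 50% of all genes did. TLR5, the flagellin receptor, came closest. It measured 6.73, 6.98 and 6.84 in siERK3 and 6.74, 7.01 and 6.81 in siCon, brighter than 91.0% to 94.0% of that array's negative controls. Its log2 change was -0.01 (95% interval -0.33 to 0.31). TLR1, TLR2, TLR7, TLR8, TLR9 and TLR10 lay among the controls, each above no more than 52.0% of them on any array. A change of these 6 could not be followed at this signal.

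TLR2, the obligate partner of TLR1 and TLR6 in lipopeptide recognition, measured 3.64, 3.94 and 4.17 in siERK3, against 3.65, 4.37 and 4.09 in siCon. The groups overlapped throughout. TLR1, which pairs with TLR2 for triacylated lipopeptides, averaged 3.69 ± 0.31 in siERK3 and 3.66 ± 0.25 in siCon (SD, n = 3 each). TLR10, a relative of TLR1 and TLR6, averaged 3.67 ± 0.36 in siERK3 and 3.51 ± 0.09 in siCon. TLR1 and TLR6 are closely similar in sequence. The TLR1 probe set stayed at control level in both groups while that of TLR6 did not. Probe sequences were not compared, so whether a probe set also picks up a related transcript was not tested.

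Among the nucleic acid receptors of the endosome, TLR7, a sensor of single-stranded RNA, measured 3.65, 3.15 and 4.01 in siERK3, against 3.73, 4.33 and 4.21 in siCon. TLR9, which senses unmethylated CpG DNA, measured 3.62, 3.41 and 3.38 in siERK3, against 3.65, 3.80 and 3.74 in siCon. The TLR9 groups did not overlap, yet all 6 values were above no more than 35.3% of the negative controls. Neither TLR7 (log2 change -0.49, adjusted p 0.440) nor TLR9 (-0.26, adjusted p 0.456) passed limma's test. TLR8, the other sensor of single-stranded RNA, averaged 3.36 ± 0.13 in siERK3 and 3.34 ± 0.09 in siCon (SD, n = 3 each).

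Over the 10 receptors, 1 fell, 0 rose and 9 did not pass limma's test, where 0.956% of all genes passed, 0.447% higher and 0.509% lower. The count was the same at an unadjusted p under 0.05, 1 lower and 0 higher, against 6.98% of all genes higher, 6.5% lower and 13.5% in either direction. Of the 612 negative controls, 12.4% also had an unadjusted limma p under 0.05 and 0 passed after adjustment when every probe set was tested. The groups did not overlap for 2 receptors, TLR6 and TLR9. Both were lower in siERK3. Of all genes, 19.8% had no overlap, 10.1% with siERK3 higher and 9.7% with siERK3 lower, so 2 of 10 is near the background in total. The median log2 change of the receptors was 0.01, beside -0.00139 over all genes, with 5 receptors higher and 5 lower.

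**Figure D2:**
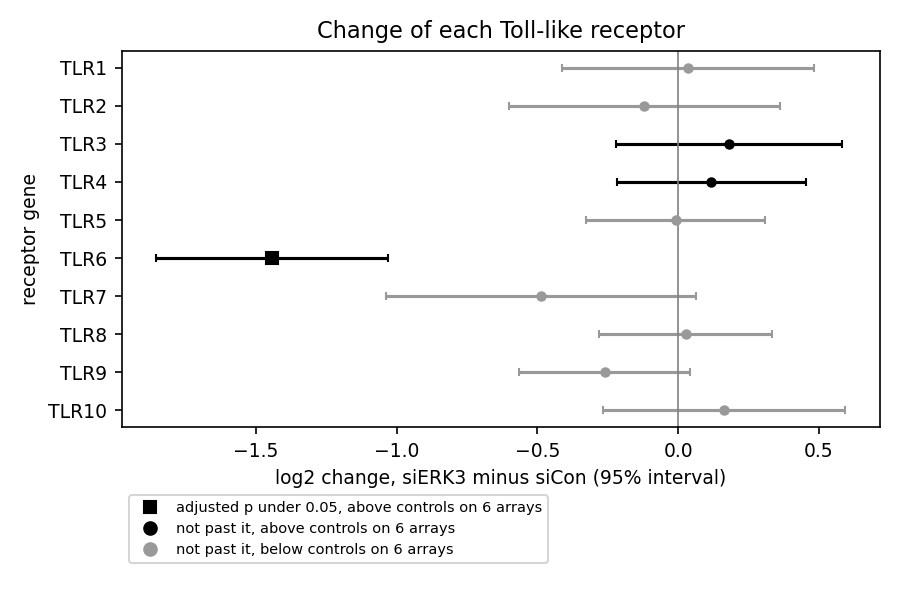
Log2 change (siERK3 minus siCon, horizontal axis) of each receptor with its 95% interval from limma, n = 3 arrays per group. The square marks TLR6, whose interval of -1.85 to -1.03 lies apart from those of TLR3 and TLR4; grey marks the 7 receptors that did not exceed the negative controls' 95th percentile on any array.

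TLR6 lies on chromosome 4 (38822897 to 38868390, GRCh38.p14) beside TLR1 (38787569 to 38805644) and TLR10 (38772238 to 38782990), and its neighbours were examined after its values were seen. FAM114A1, whose annotation overlaps that of TLR6 by 585 bases, averaged 6.28 ± 0.28 in siERK3 and 6.68 ± 0.39 in siCon (SD, n = 3 each), below the controls' 95th percentile on all 6 arrays. Its log2 change was -0.40 (95% interval -0.91 to 0.11). Beyond FAM114A1, TMEM156 lay below that percentile on all 6 arrays, with a change of -0.18 (95% interval -0.58 to 0.23). The next gene measured, KLHL5, lay above the controls on all 6 arrays and was lower without overlap, averaging 11.46 ± 0.05 in siERK3 and 11.80 ± 0.12 in siCon (SD, n = 3 each). Its change of -0.33 (95% interval -0.63 to -0.04) did not pass limma's threshold (adjusted p 0.312). On the far side of TLR10, KLF3 averaged 10.73 ± 0.16 in siERK3 and 10.70 ± 0.26 in siCon, above the controls on every array, with a change of 0.03 (95% interval -0.35 to 0.41).

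By their course over the 6 arrays, the genes most like TLR6 among 7720 others above the controls were CAMK2D, a calcium-dependent kinase (Pearson's r 0.9986), ETV4, an ETS transcription factor (0.9897), and DUSP3, a dual-specificity phosphatase (0.989). None of the 3 passed limma's test, with log2 changes of -0.52, -0.20 and -0.30 (adjusted p 0.123, 0.552 and 0.332). In all, 335 genes had an r over 0.9 with TLR6. Its groups lay far apart, so a gene that separates them ranks high whatever the size of its change. The leaders are a description of 6 shared arrays, and shared regulation with TLR6 was not tested. For TLR4 they were PACC1 (0.983), POP7 (0.978) and SNX12 (0.977), and for TLR3 CHCHD10 (0.999), MTRF1L (0.982) and VIRMA (0.972). An r over 0.9 was reached by 69 genes for TLR4 and 43 for TLR3. Neither receptor passed limma's test, so these r values follow differences between single arrays.

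Receptors of this family need helper proteins at the surface and in the endosome. Of 16 measured co-receptors, chaperones and trafficking factors, 0 passed limma's test over all genes, and 7 exceeded the controls on all 6 arrays. At an unadjusted p under 0.05, 1 was higher and 2 were lower, 3 of 16 beside 13.5% of all genes, a count near that background. LY96 (MD-2), which binds lipopolysaccharide together with TLR4, measured 5.70, 5.30 and 5.55 in siERK3, against 5.72, 5.24 and 5.18 in siCon. CD14, which hands lipopolysaccharide to that complex, measured 4.82, 4.60 and 4.86 in siERK3, against 4.20, 5.43 and 5.16 in siCon. Both stayed below the controls' 95th percentile on all 6 arrays, although TLR4 itself lay above it.

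UNC93B1, which carries the nucleic acid receptors to endosomes, measured 8.48, 8.29 and 8.46 in siERK3, against 8.68, 8.69 and 8.60 in siCon. The groups did not overlap, but with a log2 change of -0.25 (SE 0.13) UNC93B1 did not pass (adjusted p 0.465 in limma). The cathepsins CTSS and CTSB, lysosomal proteases of a group that cleaves endosomal receptors into their active form, had changes of -0.44 and -0.36 (adjusted p 0.186 and 0.330 in limma). NRROS, described in mouse as a binding partner of these receptors, had a change of 0.35 at control level. The median change of the list was -0.10.

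Of 20 measured adaptors and receptor-proximal kinases and ligases, 1 fell, 0 rose and 19 did not pass, where 0.956% of all genes passed. At an unadjusted p under 0.05 in limma, 1 was higher and 1 lower, beside 6.98% and 6.5% of all genes. The one that fell was IRAK2, a kinase of the complex that MyD88 assembles. Its log2 signal was 6.80, 7.36 and 7.10 in siERK3, all below the controls' 95th percentile, against 8.61, 8.31 and 8.59 in siCon, all above it. IRAK2 was at least 2.19-fold lower, a bound set by the controls, with an adjusted p of 0.0135 in limma, and averaged 7.09 in siERK3 and 8.50 in siCon. Its call was lost without siERK3 1, siERK3 3, siCon 1 or siCon 3 (highest adjusted p 0.0687 in limma).

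MYD88, the adaptor shared by every receptor of the family except TLR3, did not pass but lay higher. It measured 10.71, 10.29 and 10.22 in siERK3, against 9.51, 9.66 and 9.60 in siCon, so each siERK3 array exceeded each siCon array. Its log2 change was 0.82 (SE 0.16), with an adjusted p of 0.0644 in limma. TIRAP, which bridges MyD88 to TLR2 and TLR4, averaged 6.62 ± 0.37 in siERK3 and 6.87 ± 0.34 in siCon (SD, n = 3 each). TICAM1 (TRIF), the adaptor of TLR3, averaged 5.47 ± 0.15 in siERK3 and 5.67 ± 0.50 in siCon. TIRAP and TICAM1 lay below the controls on all 6 arrays. TAB3, a subunit of the TAK1 kinase complex, had a change of 0.28 (adjusted p 0.393 in limma), and the list's median was 0.08.

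Of 13 measured inhibitors of receptor signalling, 1 rose, 0 fell and 12 did not pass, where 0.956% of all genes passed. The list's median change was -0.11. At an unadjusted p under 0.05 in limma, 2 were higher and 2 lower, beside 6.98% and 6.5% of all genes. The member that rose, IL1RL1, is the IL-33 receptor and is known to restrain MyD88 signalling. Its values of 6.43, 6.63 and 6.96 in siERK3 and 5.05, 5.29 and 4.28 in siCon did not overlap, but all lay below the controls' 95th percentile (adjusted p 0.0227 in limma, lost without siERK3 1, siERK3 2, siERK3 3 or siCon 1). TNFAIP3 (A20), a deubiquitinase that ends NF-kB signalling, measured 11.19, 11.68 and 11.46 in siERK3, against 12.22, 12.32 and 12.21 in siCon. TNFAIP3 did not pass, at -0.81 (SE 0.15) and an adjusted p of 0.0563 in limma.

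Among 13 measured transcription factors at the end of the pathway, 0 passed limma's test, and 7 lay at or below the controls on all 6 arrays. At an unadjusted p under 0.05, 0 were higher and 3 lower, beside 6.98% and 6.5% of all genes, and of those 3 only NFKB2 lay above the controls. NFKB2, an NF-kB subunit, measured 11.76, 12.05 and 11.80 in siERK3, against 12.49, 12.40 and 12.34 in siCon (log2 change -0.54, adjusted p 0.125). IRF1 and IRF8, with changes of -0.47 and -0.49, lay below the controls' 95th percentile on all 6 arrays. RELA, an activating NF-kB subunit, had a change of 0.04 (SE 0.15), and the list's median was -0.04.

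Endogenous ligands are proteins of matrix or stressed cells that have been described to act on these receptors. Of 16 genes for them, 1 rose, 1 fell and 14 did not pass, where 0.956% of all genes passed. At an unadjusted p under 0.05 in limma, 4 were higher and 1 lower, beside 6.98% and 6.5% of all genes. The median change was 0.16, and 7 of the 16 lay at or below the controls on all 6 arrays. BGN, the matrix proteoglycan biglycan, described as a ligand of TLR2 and TLR4, measured 10.65, 10.94 and 11.10 in siERK3, against 9.30, 9.60 and 9.70 in siCon. It rose 2.58-fold (adjusted p 0.0135 in limma), and the call was lost without siERK3 2, siERK3 3 or siCon 1 (highest adjusted p 0.0724). LUM, the related proteoglycan lumican, measured 8.95, 8.77 and 8.59 in siERK3, against 9.56, 9.50 and 9.73 in siCon. LUM fell 1.77-fold (adjusted p 0.0441 in limma) and lost its call whichever array was left out (highest adjusted p 0.157). FN1, which encodes fibronectin, had a change of 0.53 (SE 0.14, adjusted p 0.145 in limma).

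Among 19 measured cytokines and chemokines and other genes that these receptors induce, 3 fell, 1 rose and 15 did not pass, where 0.956% of all genes passed. Of the 19, 10 lay at or below the controls on all 6 arrays. At an unadjusted p under 0.05, 8 were lower and 1 higher, beside 6.5% and 6.98% of all genes. The list's median log2 change of -0.37 was that of IL12B, an interleukin 12 subunit far below the controls' 95th percentile. IL12B measured 2.38, 2.76 and 2.77 in siERK3 and 3.26, 2.89 and 2.87 in siCon, so the median alone is no measured fall. Without overlap, 9 of the 19 were lower in siERK3 and 2 higher, beside 9.7% and 10.1% of all genes. The list was drawn up with earlier results of these arrays known, so neither count is independent evidence. Of members above the controls on all 6 arrays, ICAM1 (log2 change -0.82), CXCL1 (-0.74), CXCL3 (-0.69) and CXCL2 (-0.48) were among the lower ones. IL1B (0.29) was higher, and none of these passed limma's test. CCL20, a chemokine for dendritic cells and lymphocytes, measured 6.78, 7.31 and 6.90 in siERK3, all below the controls' 95th percentile, against 8.27, 8.51 and 8.73 in siCon. It was at least 2.19-fold lower (adjusted p 0.0135 in limma; means of 6.99 in siERK3 and 8.50 in siCon), and the call was lost without siERK3 1, siERK3 3 or siCon 3. IL1A, the alarmin interleukin 1 alpha, measured 10.87, 11.14 and 10.90 in siERK3, against 12.16, 12.31 and 12.15 in siCon. IL1A fell 2.36-fold (adjusted p 0.00955 in limma), with its call lost without siERK3 1 or siERK3 3.

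CCL2, a monocyte chemokine, measured 9.98, 9.71 and 9.71 in siERK3, against 10.67, 10.55 and 10.74 in siCon. CCL2 fell 1.80-fold (adjusted p 0.0331 in limma) and lost its call whichever array was left out. IL6, the member that rose, measured 5.56, 5.24 and 5.69 in siERK3, against 4.30, 4.51 and 4.54 in siCon. All its values lay below the controls' 95th percentile, and its call too was lost whichever array was left out (adjusted p 0.0237 in limma with all 6). CXCL8, the neutrophil chemokine interleukin 8, was outside the rule for naming and measured 13.67, 13.99 and 13.76 in siERK3, against 14.26, 14.42 and 14.45 in siCon. CXCL8 missed the threshold, with a change of -0.58 (SE 0.14) and an adjusted p of 0.115 in limma.

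**Figure D3:**
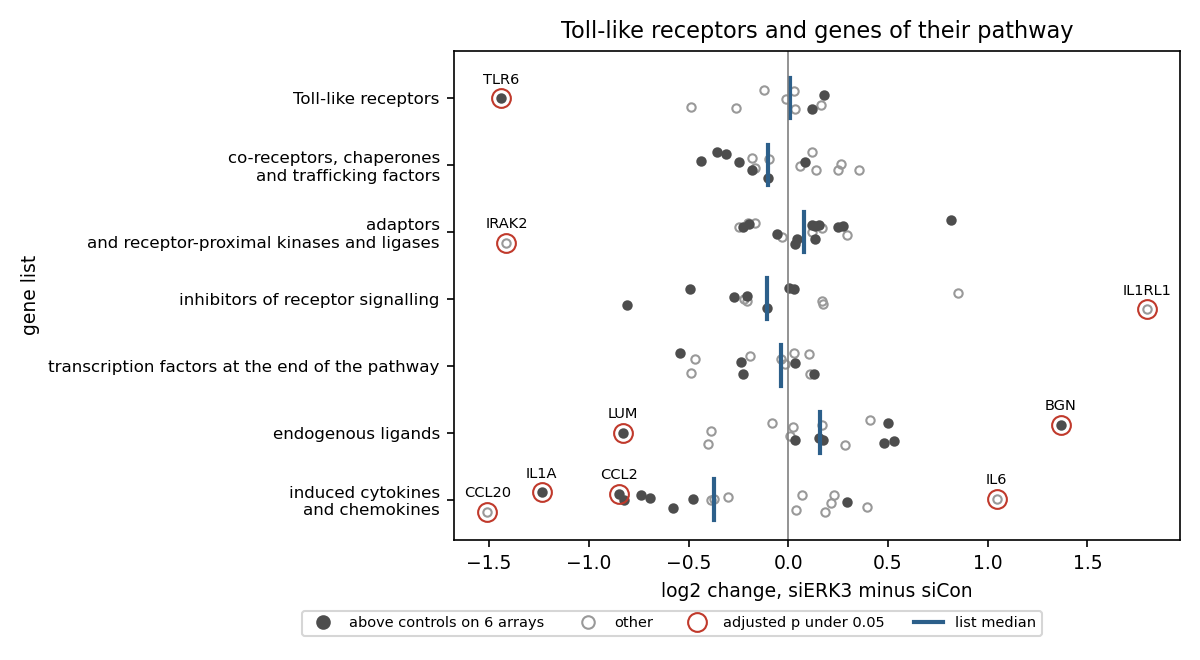
Log2 change (siERK3 minus siCon, horizontal axis) of the 10 receptors and of 97 measured genes in 6 lists of their pathway (vertical axis, with random spread inside a list), 1 point per gene and a blue bar at each list's median. Filled points exceeded the controls' 95th percentile on each of the 6 arrays; red rings mark adjusted p under 0.05 in limma, 1 receptor and 8 pathway genes.

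Over the 6 lists, 8 of 97 measured genes passed, or 8.25%, against 0.956% of all genes, 3 of them higher and 5 lower. All 8 called genes were known from an earlier analysis of the same arrays when the lists were drawn up. The share is therefore not independent evidence about the pathway, and neither are the lists' counts at an unadjusted p or without overlap. The median log2 change of the 97 genes was 0.01.

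**Figure D4:**
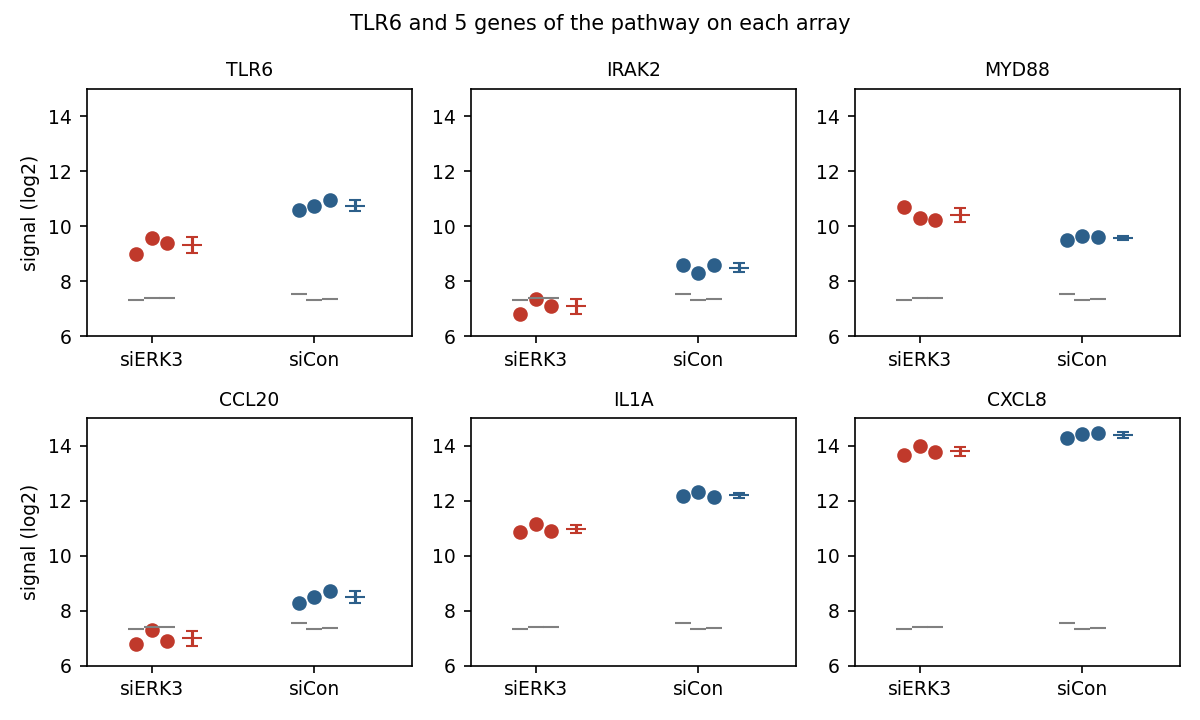
Log2 signal (vertical axis, same range in each panel) of TLR6 and 5 pathway genes on each array, siERK3 left in red and siCon right in blue, with mean and SD of 3 arrays beside the points and grey ticks at the 95th percentile of that array's negative controls. TLR6, IRAK2, CCL20, IL1A and CXCL8 lie lower and MYD88 higher on every siERK3 array, and IRAK2 and CCL20 lie below the ticks in siERK3. The 5 pathway genes were picked by hand, and MYD88 and CXCL8 did not pass limma's test. Not shown are BGN, IL1RL1 and IL6, which rose, and LUM and CCL2, which fell.

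Leukocytes, in which most of these receptors are best known, were looked for by their markers. Of 10 macrophage and monocyte markers, 2 exceeded the controls on all 6 arrays, CD68 and LYZ, and 8 lay below them. The mean log2 level of the 10 markers was 5.71 to 5.78 on the siERK3 arrays and 5.80 to 6.01 on the siCon arrays. CD68 averaged 12.05 ± 0.05 in siERK3 and 12.51 ± 0.11 in siCon, and LYZ 8.55 ± 0.35 in siERK3 and 9.40 ± 0.19 in siCon (SD, n = 3 each). Neither passed limma's test (adjusted p 0.152 and 0.0965). The defining markers PTPRC, CSF1R, SPI1 and ITGAM lay below the controls' 95th percentile in both groups, PTPRC at 4.19 in siERK3 and 4.03 in siCon.

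All 6 measured markers of B cells and plasmacytoid dendritic cells, and all 8 of neutrophils and T cells, lay below the controls on every array. The mean level of the B cell list was 4.86 to 5.29 in siERK3 and 4.93 to 5.10 in siCon, and that of the neutrophil and T cell list 3.86 to 3.94 in siERK3 and 3.94 to 4.20 in siCon. Of 9 fibroblast, endothelial and keratinocyte markers, 8 lay below the controls on every array. PDGFRB, a growth factor receptor of mesenchymal cells, exceeded them on 3 siERK3 arrays and 0 siCon arrays, with a log2 change of 0.75 (adjusted p 0.0631 in limma). The part of these marker differences in the receptor results was not tested.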

How the data were processed

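The log2 signals were used as the authors deposited them, 1 value for each of 24351 probe sets on 6 arrays. The labels name no software, background correction or normalization. Between 1.46% and 1.61% of values exceed 16, more than a 16-bit scanner can give in log2, so the zero point and stretch of the scale are unknown and folds depend on the stretch. The platform annotation named 17709 probe sets, and the brightest per gene left 17687 genes. Groups came from the sample titles. siERK3 was compared with siCon in limma 3.58.1 (R 4.3.3, lmFit and eBayes, no covariate, no filter), with p-values adjusted over all genes by Benjamini-Hochberg and called under 0.05. Lacking detection calls, background was set for each array at the 95th percentile of its 612 negative controls. Where all 3 arrays of 1 group lay below it, a fold is a bound, taken against background or the gene's own signal, whichever was brighter. The number of arrays limits the precision.

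Members and lists were chosen with earlier results of these data known. Named were all receptors, every gene past the threshold in a list and otherwise up to 3 genes per list with the smallest p, direct partners of a receptor, and the 3 genes most like each receptor above background. FAM114A1, TMEM156, KLHL5, KLF3, IL12B, TAB3, TNFAIP3, RELA, FN1 and CXCL8, and the melanoma markers listed, were chosen after their values were seen. So were ICAM1, CXCL1, CXCL2, CXCL3 and IL1B. The macrophage markers PTPRC, CSF1R, SPI1 and ITGAM were also named outside the rule. In the melanoma list NGFR had the smallest p but lay below the controls on all 6 arrays (log2 change 0.57, adjusted p 0.245 in limma). On simulated data (10 simulations, 17687 genes, 200 changed), the fit recovered 66.0% of genes changed by 0.8 and 96.8% at 1.2 on the log2 scale, with 6.23% false calls. The simulated noise was normal and independent between genes, without deviations shared by an array. Recovery on the real arrays may therefore be lower. Alternatives were other normalizations, filters, probe set rules and variance models, the replicate block, and omitted arrays. Same-numbered arrays did not deviate together (correlations 0.05, -0.12 and -0.04), so the numbers were not used as pairs.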

Additional observations from a re-analysis of the deposited data

How the results depend on the processing

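TLR6 kept its direction under all 18 alternatives (log2 change -1.57 to -1.28) and passed limma's threshold in 13 of them, with adjusted p from 3.04e-05 under a mean-variance trend with robust eBayes to 0.154 without siERK3 3 and siCon 2, an alternative chosen after seeing the data. The count of receptors called was 1 in the report, 0 without moderation, 0 without siERK3 3 and siCon 2, and 0 to 1 with 1 array left out; where it was 0, limma gave 1 or 2 receptors at an unadjusted p under 0.05. Pathway genes called numbered 8 in the report, 15 among genes above the median level, 18 with the trend, 4 with all probe sets tested, 3 with the replicate block, 0 without moderation, 0 without siERK3 3 and siCon 2 (26 at an unadjusted p under 0.05 in each of these last fits) and 0 to 5 with 1 array left out (0 without siERK3 3, with 28 at that level). Over all genes, 169 were called in the report, 365 above the 30th percentile of mean level, 581 above the median, 722 with the trend, 62 with all probe sets, 33 with the replicate block, 8 without moderation, 7 without siERK3 3 and siCon 2, and 23 to 60 with 1 array left out. The cause of these shifts was not tested, beyond the fewer arrays or genes in some fits. Under the replicate block TLR6 kept its call (adjusted p 0.0348). Receptors without overlap numbered 2 in the report, 2 to 4 with 1 array left out (4 without siERK3 3) and 4 without siERK3 3 and siCon 2. Groups of fewer arrays separate more easily. The share of all genes without overlap was not counted in those fits, so 4 cannot be read as more receptors changing. Against the 99th percentile of the negative controls 1 receptor instead of 3, TLR4, lay above them on all 6 arrays, so the signal of TLR3 and TLR6 over background limits what can be said of their level.

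Signs turned for 5 receptors at or below the controls, none of them called. With array weights TLR5 was at 0.020 and TLR8 at -0.013. With 1 array left out the log2 change ranged from -0.11 to 0.21 for TLR1, from -0.31 to 0.043 for TLR2, from -0.074 to 0.068 for TLR5, from -0.018 to 0.10 for TLR8 and from -0.045 to 0.29 for TLR10. Without both siERK3 3 and siCon 2, TLR5 was at 0.074, TLR8 at -0.038 and TLR10 at -0.089. The cause was not tested.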
